A study of Homo sapiens with 6 samples.

Results

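The integrated stress response was examined through 10 genes tied to the transcription factor ATF4: ATF4, ATF5, ATF3, DDIT3, DDIT4, TRIB3, CHAC1, ASNS, SESN2 and VLDLR. Members were the probes that the annotation used here assigns to these symbols. It covers only probes of the authors' processed table, all of which were detected on at least 1 array, so a member probe that was never detected could not be named. This gave 12 probes for 9 genes, of 13977 annotated probes for 10756 genes. CHAC1, a glutathione-degrading enzyme, had no probe listed in the annotation used here and carries no value below. All 12 probes had a detection p-value under 0.01 on at least 3 of the 6 arrays and were tested.

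The cells were PC3, an established line of human prostate cancer, with a construct from which doxycycline induces PGC1A, a coactivator of mitochondrial gene expression. Illumina bead arrays, one array per sample, measured PC3 PGC1A cells without doxycycline (3 arrays) and the same line given doxycycline for 2 passages (3 arrays). Doxycycline-treated cells without the construct were not analysed here, so an effect of doxycycline and an effect of induced PGC1A cannot be told apart. The sources used here give neither the promoter of the construct nor whether the line is 1 clone. Nor do the labels say that replicates were separate cultures, so p-values speak only of the spread among these arrays, some of which may be technical.

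In the integrated stress response, kinases that sense amino acid shortage, unfolded protein, double-stranded RNA or heme and mitochondrial trouble phosphorylate the translation factor eIF2. General translation then slows while the mRNA of ATF4 is translated more, so much of the control of ATF4 lies at translation, which arrays do not measure. ATF4 protein switches on genes of amino acid supply and feedback. Doxycycline inhibits mitochondrial ribosomes at sufficient dose, and stalled mitochondrial translation is a known trigger of this response in cultured cells, which is the question that the comparison addresses.

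Values are normalised log2 signals, and changes are log2 fold changes of doxycycline over no doxycycline. A call required an adjusted p under 0.05 (Benjamini-Hochberg over 15542 probes) in limma's moderated test. Array medians of raw intensity lay between 65.58 and 68.04 without doxycycline and between 60.03 and 61.59 with it, a gap between the groups whose part in the results was not tested. In all, from 15029 to 16012 probes were detected per array. The labelled line was checked by the epithelial markers KRT8, KRT19, EPCAM and CDH1 and by VIM, a mesenchymal filament gene. All 5 were detected on all 6 arrays, and the listed KRT18 probe on 1. Among fibroblast genes 3 of 5 (COL1A2, LUM and PDGFRA) were detected on all 6 arrays. The summed fibroblast level on the log2 scale was 11.27 to 11.47 without and 11.20 to 11.51 with doxycycline, and its part in the results was not tested. Of the endothelial genes only PECAM1 had a listed probe, at 5.32 to 5.90 without and 4.88 to 5.87 with doxycycline, and of the leukocyte genes only CD14, at 5.32 to 5.49 without and 4.91 to 5.40 with it. Each was detected on 4 of 6 arrays, and neither change passed (PECAM1 -0.41, limma adjusted p = 0.505, and CD14 -0.31, limma adjusted p = 0.333). The part of these genes in the results was not tested. The PPARGC1A probe changed by 0.036, which did not pass (limma adjusted p = 0.952), and whether it reads the construct was not analysed here. That probe lay near background, with signals from 4.94 to 5.73, and was detected on 5 of 6 arrays. ESRRA, the nuclear receptor that partners PGC1A, rose by 0.50 (limma adjusted p = 0.0495). That ESRRA call was lost with median scaling (adjusted p = 0.0868), without a detection filter (0.0692) and in all 8 fits that left out arrays, where adjusted p lay between 0.0995 and 0.249. The call was kept without background correction (limma adjusted p = 0.0201), on the deposited table (0.0204), with an offset of 50 (0.0206) and with a variance trend (0.0244). It was also kept with array weights (0.0309), with detection required on all 6 arrays (0.0373) and with the replicate block (0.0463). The ESRRA change stayed between 0.44 and 0.54 in every setting.

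Promoters of the members were read from RefSeq (GRCh38.p14) as windows of 250 bases before to 50 after each annotated start, and all 10 genes matched. They were searched on both strands for TGATGNAA, the core of the C/EBP-ATF response element through which ATF4 and its partners bind DNA. A match is a description and not a binding site. Windows of 3 of the 10 genes (ATF3, ASNS and CHAC1) held it, against 4.46% of 27305 genes. By window, 3 of the members' 18 held it, against 3.62% of 35116 windows. ATF3 and ASNS had 2 windows each, and a window of each lacked it. The promoters of ASNS and ATF3 are shown because they hold the searched letters and their genes have values here. Capitals mark the match, which begins 68 bases before the start in ASNS (chr7:97872409-97872658, minus strand) and 191 bases before the upstream start in ATF3 (chr1:212565157-212565406, plus strand).
ASNS: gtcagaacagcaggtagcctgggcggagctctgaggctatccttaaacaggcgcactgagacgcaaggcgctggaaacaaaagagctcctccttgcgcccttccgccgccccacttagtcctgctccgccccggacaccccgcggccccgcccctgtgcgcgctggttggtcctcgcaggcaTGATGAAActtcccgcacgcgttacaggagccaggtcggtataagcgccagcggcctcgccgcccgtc
ATF3: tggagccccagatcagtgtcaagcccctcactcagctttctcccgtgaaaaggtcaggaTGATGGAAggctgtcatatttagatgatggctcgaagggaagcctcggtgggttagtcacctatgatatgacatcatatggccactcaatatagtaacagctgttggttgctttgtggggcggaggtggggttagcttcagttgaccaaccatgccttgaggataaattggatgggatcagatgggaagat

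No member of the stress response passed the threshold with doxycycline. Of the 12 probes, 5 lay above 0 and 7 below, from -0.33 for ASNS to 0.31 for DDIT3, with a median of -0.0025 beside -0.018 over all 15542 probes. By the brightest probe of each gene, 3 of the 9 genes lay above 0 and 6 below, with a median of -0.21 beside -0.026 over 9841 genes. That median is the change of ATF5, which was 0.060 without doxycycline replicate 2. Among the 6 below 0, TRIB3 was at -0.0031. The factor ATF4 and the death-linked factor DDIT3 lay above 0, and the amino acid gene ASNS, the growth restraints SESN2 and DDIT4 and the lipoprotein receptor VLDLR had their brightest probes below 0. In such bulk RNA, a change in every cell and a change in the share of cells that respond cannot be told apart. Called probes numbered 0 of 12 in the fit without the replicate number and 0 of 12 with it as a block. Over all probes the shares called were 0.682% (106 probes, 89 higher and 17 lower) and 1.07% (167 probes, 135 higher and 32 lower). At an unadjusted p under 0.05 the member counts were 0 of 12 and 1 of 12 (limma), beside 2319 and 3459 of all 15542 probes. The lowest adjusted p of any member was 0.39 in the first fit and 0.193 in the second, both for an ATF4 probe. With 3 arrays in a group the 95% intervals of the members were wide: their half-widths ran from 0.25 to 1.02 on the log2 scale. With the replicate block the half-widths ran from 0.20 to 0.51. These intervals are not adjusted for the 15542 probes, so a call needed a change larger than the half-width. ESRRA, which just passed at 0.50 in the first fit, had an SE of 0.085, smaller than that of any member.

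**Figure D1:**
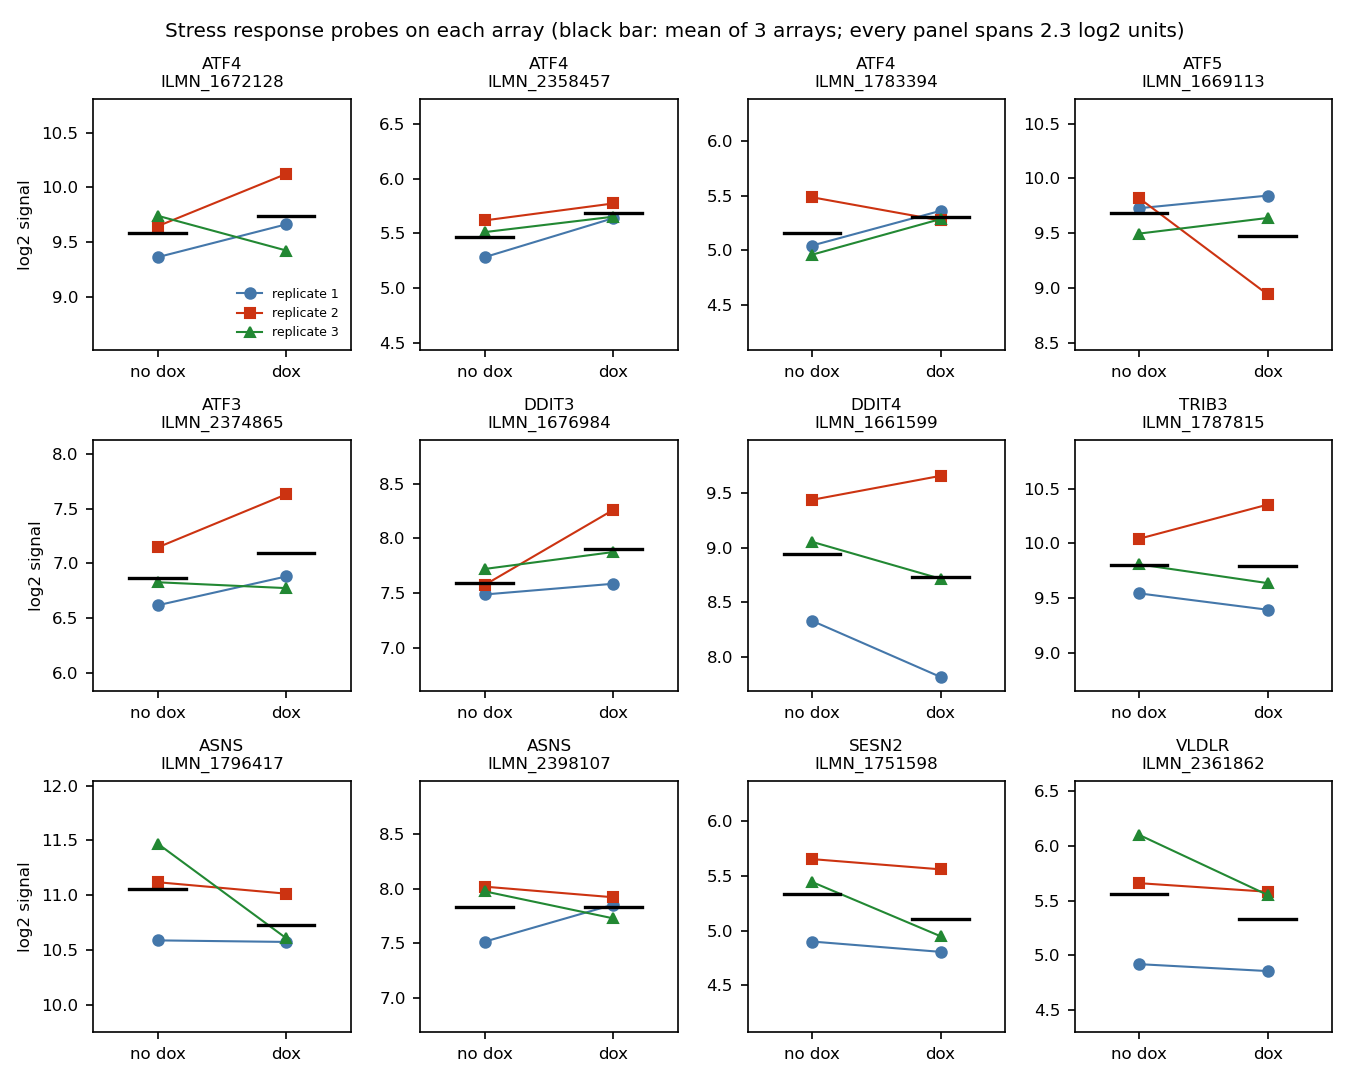
Log2 signal of each member probe on each array without (no dox) and with doxycycline (dox). Lines join arrays of the same replicate number, and black bars are means of 3 arrays. Both number 2 arrays (red squares) sit above both number 1 arrays (blue circles) for ATF3, DDIT4, TRIB3, SESN2, VLDLR and both ASNS probes, while the group means differ by 0.33 at most.

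The transcription factors were described first. ATF4, the central factor of the response, was measured by 3 probes. On its brightest probe, ILMN_1672128, the log2 signals were 9.36, 9.64 and 9.74 without doxycycline (replicates 1 to 3) and 9.66, 10.12 and 9.42 with it. The groups overlapped, and the highest array was doxycycline replicate 2. The means were 9.58 ± 0.20 (SD, n = 3) and 9.73 ± 0.36 (SD, n = 3), and the change was 0.15 (SE 0.182, 95% interval -0.26 to 0.57, limma adjusted p = 0.732). Without doxycycline replicate 2 it was -0.040 (limma adjusted p = 0.919).

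The other ATF4 probes lay near background. For ILMN_2358457 the signals were 5.28, 5.62 and 5.51 without doxycycline and 5.64, 5.77 and 5.65 with it. It was the only member probe whose groups did not overlap, narrowly, and 21.6% of all probes tested had groups that did not overlap. Its change was 0.22 (SE 0.107, limma adjusted p = 0.39, and 0.193 with the replicate block). For ILMN_1783394 the signals were 5.04, 5.48 and 4.96 against 5.36, 5.27 and 5.29. Detection was reached on 1 of the 3 untreated arrays and on all 3 treated ones, and its change was 0.14 (limma adjusted p = 0.669). The accession behind ILMN_2358457 is another ATF4 transcript record than that of the others, and no probe positions were analysed here.

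ATF5, a related factor linked to mitochondrial proteotoxic stress, went the other way on 1 array. Its signals were 9.73, 9.82 and 9.50 without doxycycline and 9.84, 8.94 and 9.64 with it. Doxycycline replicate 2 was the lowest of the 6 arrays, and the other 5 lay between 9.50 and 9.84. The change was -0.21 (SE 0.218, 95% interval -0.71 to 0.29, limma adjusted p = 0.695), and it became 0.060 without that array (limma adjusted p = 0.857).

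ATF3, a stress-induced factor of the same family, had signals of 6.62, 7.15 and 6.83 without doxycycline and 6.88, 7.63 and 6.77 with it. In each group the number 2 array was the highest. Its change of 0.23 (SE 0.231, 95% interval -0.30 to 0.76, limma adjusted p = 0.679) became -0.036 without doxycycline replicate 2 (limma adjusted p = 0.936). DDIT3 encodes CHOP, a factor that promotes cell death under lasting stress. Its signals were 7.49, 7.57 and 7.72 without doxycycline and 7.58, 8.26 and 7.87 with it. DDIT3 was higher with doxycycline within each replicate number, by 0.098, 0.69 and 0.16, but the groups overlapped. The change of 0.31 (SE 0.164, 95% interval -0.065 to 0.69, limma adjusted p = 0.42) was the largest rise among the members, and it was 0.14 without doxycycline replicate 2 (limma adjusted p = 0.632).

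Among the feedback regulators and growth restraints, DDIT4 had the largest SE of any member. It encodes REDD1, an inhibitor of the growth kinase mTORC1 that also responds to low oxygen and glucocorticoids. Its signals were 8.33, 9.44 and 9.05 without doxycycline and 7.82, 9.66 and 8.71 with it. Doxycycline replicates 1 and 2 were the lowest and the highest of the 6 arrays, so 1 group spanned the other. The change was -0.21 with the widest interval of any member, -1.23 to 0.81 (SE 0.444, limma adjusted p = 0.858), which runs from 0.426-fold to 1.75-fold. With the replicate block the interval was -0.57 to 0.14 (limma adjusted p = 0.43). Without doxycycline replicate 2 the change was -0.67 (limma adjusted p = 0.411).

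TRIB3, a pseudokinase that ATF4 induces and that restrains ATF4 in turn, had signals of 9.54, 10.04 and 9.81 without doxycycline and 9.39, 10.35 and 9.64 with it. The group means were 9.80 ± 0.25 (SD, n = 3) and 9.79 ± 0.50 (SD, n = 3), a change of -0.0031 (SE 0.239, 95% interval -0.55 to 0.55, limma adjusted p = 0.997). With the replicate block the interval was -0.28 to 0.28. The doxycycline arrays again lay on both sides of the others. Without doxycycline replicate 2 the TRIB3 change was -0.28 (limma adjusted p = 0.436).

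SESN2, sestrin 2, a stress-induced leucine sensor that also restrains mTORC1, was close to background. Its signals were 4.90, 5.65 and 5.45 without doxycycline and 4.81, 5.56 and 4.95 with it. Raw intensities ran from 65.2 to 96.8, and detection was reached on 2 of the 3 untreated arrays and on 1 of the 3 treated ones. The change was -0.23 (SE 0.239, 95% interval -0.78 to 0.32, limma adjusted p = 0.694), with a blocked interval of -0.48 to 0.026. It was -0.46 without doxycycline replicate 2 (limma adjusted p = 0.354).

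Among the metabolic targets, ASNS makes asparagine and is a standard reporter of ATF4. Its brightest probe, ILMN_1796417, gave 10.59, 11.12 and 11.47 without doxycycline and 10.57, 11.01 and 10.61 with it. The 2 highest arrays were both without doxycycline, but the lowest arrays of the groups lay side by side. The change was -0.33 (SE 0.22, 95% interval -0.83 to 0.18, limma adjusted p = 0.526). Its size moved with single untreated arrays, to -0.12 without untreated replicate 3 and to -0.56 without untreated replicate 1. The other probe, ILMN_2398107, gave 7.52, 8.02 and 7.98 against 7.85, 7.92 and 7.73, a change of -0.0019 (SE 0.142, limma adjusted p = 0.997). The ASNS probes thus gave different sizes of change, and neither passed.

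VLDLR, a lipoprotein receptor that ATF4 can induce, was dim as well. Its signals were 4.92, 5.66 and 6.10 without doxycycline and 4.85, 5.58 and 5.55 with it. It was detected on 2 of 3 arrays of each group, and number 1 was the lowest array in each. The change was -0.23 (SE 0.304, 95% interval -0.93 to 0.47, limma adjusted p = 0.763), with a blocked interval of -0.51 to 0.052. VLDLR, SESN2 and the brighter ASNS probe were lower with doxycycline in all 3 replicate numbers. For VLDLR the within-number differences were -0.063, -0.078 and -0.55. DDIT3 and the ATF4 probe ILMN_2358457 were higher in all 3. These 5 of 12 probes stand beside 46.1% of all probes with the same sign in all 3 numbers.

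**Figure D2:**
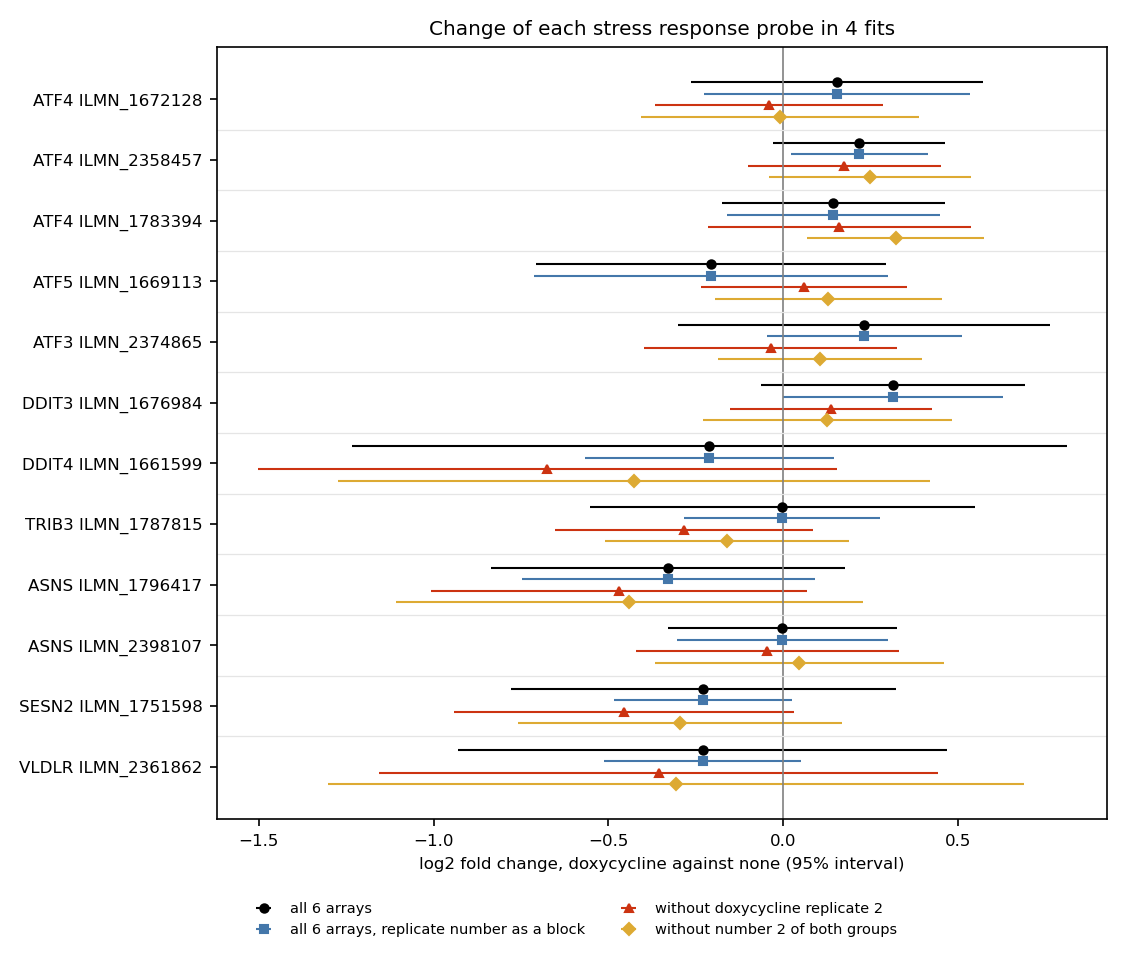
Log2 fold change of each member probe with its 95% interval in 4 limma fits: all 6 arrays, all 6 with the replicate number as a block, without doxycycline replicate 2, and without number 2 of both groups. Points lie on both sides of 0 in each fit, and DDIT4 has the widest interval with all 6 arrays, from -1.23 to 0.81.

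Leaving out the number 2 arrays moved several members without giving a call. Without doxycycline replicate 2 the changes of the 12 probes ran from -0.67 for DDIT4 to 0.17 for the ATF4 probe ILMN_2358457, and 4 lay above 0. The lowest adjusted p was 0.354 (limma), none had an unadjusted p under 0.05, and 0.167% of all probes were called in that fit. Without number 2 of both groups the changes ran from -0.44 for ASNS to 0.32 for the ATF4 probe ILMN_1783394, and 6 lay above 0. The lowest adjusted p was 0.371 (limma), 1 probe had an unadjusted p under 0.05, and 0.0129% of all probes were called. ATF4 on its brightest probe was then at -0.0088, ATF5 at 0.13, TRIB3 at -0.16 and DDIT3 at 0.13. For these fits without number 2 arrays, the share of all probes with an unadjusted p under 0.05 was not analysed here.

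Most of the spread of several members ran with the replicate number. The number took more of the variance than the group in 11 of 12 member probes and in 9826 of 15542 probes over all, where it splits the arrays into 3 sets and the group into 2. For DDIT4 it took 91.1% of the variance over the 6 arrays, for TRIB3 88%, for VLDLR 86.2%, for SESN2 81.2% and for ATF3 76.6%. The median over the 12 probes was 45.5% for the number and 11.2% for the group, beside 43.9% and 21.8% over all probes. In a moderated F-test of the number, added after these values were seen, 0 of 12 members and 1 of 15542 probes (0.00643%) passed. The adjusted p for DDIT4 was 0.152 and for VLDLR 0.16 (limma), and 5 members and 2753 of all probes had an unadjusted p under 0.05.

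Both number 2 arrays lay above the probe's mean in 9 of 12 member probes, where this held for 24.3% of all probes. Both number 1 arrays lay below it in 7 of 12, where this held for 23.5%. Doxycycline replicate 2 was the highest array for 6 of the 12, among them ATF4, ATF3, DDIT3, DDIT4 and TRIB3, and for 19.9% of all probes. What the shared number stands for is not given in the labels, so a shared culture, a shared day and a shared array position cannot be told apart.

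**Figure D3:**
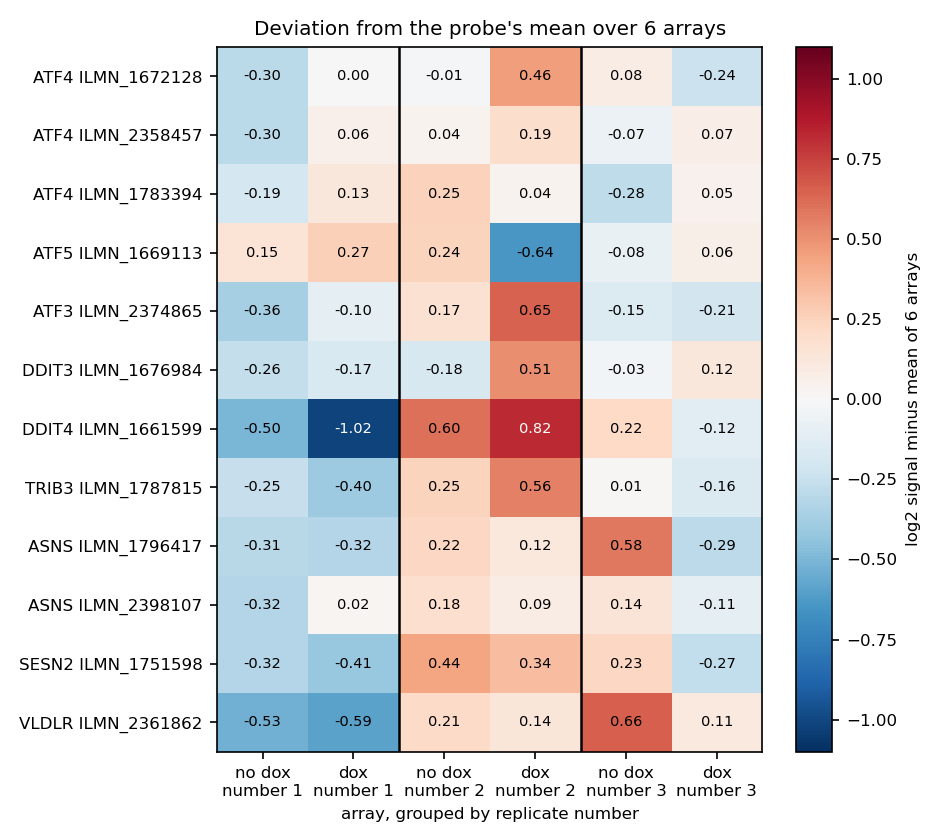
Log2 signal of each member probe on each array minus its mean over the 6 arrays, with arrays placed side by side by replicate number. DDIT4 ran from -1.02 on doxycycline replicate 1 to 0.82 on doxycycline replicate 2, and ATF5 was at -0.64 on the array where ATF3 was at 0.65.

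Across the 6 arrays the brightest probes of 8 members moved together to varying degrees, and ATF5 moved against them. The 28 pairs without ATF5 all had a Pearson correlation above 0, with a median of 0.70 and a lowest value of 0.20. Of these pairs 22 were above 0.5. The same share among other genes was not analysed here. The closest pairs were DDIT4 with TRIB3 (0.95), DDIT4 with SESN2 (0.93) and ATF4 with ATF3 (0.90). ATF5 correlated below 0 with each of the other 8, from -0.92 with DDIT3 to -0.35. ATF5 deviated from its mean by -0.64 on doxycycline replicate 2 and by -0.082 to 0.27 on the other 5 arrays, so its correlations lean on that 1 array. These points are 6 arrays that share normalisation and replicate number, and the correlations are descriptions. Among 9832 other genes, the patterns most like ATF4's brightest probe were LMBR1 (0.99), SLC31A1 (0.98), EVA1B (0.97), OPRL1 (0.96) and SPIRE2 (0.95). Those most like ASNS were GID4 (0.99), HACL1 (0.98), GIT2 (0.98), ANKZF1 (0.98) and SEPTIN10 (0.97), over the same 6 arrays.

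The rest of the pathway was read in 6 lists, with the brightest probe standing for each gene. None of the 76 tested genes of 83 listed passed, in the fit without or with the replicate block, where 0.63% of 9841 genes passed in the first. At an unadjusted p under 0.05 (limma) the counts were 2 of 13 for eIF2 kinases, phosphatase and mitochondrial relay, 2 of 10 for other ATF4 factors and secreted or growth targets, and 2 of 16 for amino acid targets. They were 1 of 12 for the tRNA synthetases, 1 of 12 for mitochondrial chaperones and proteases, and 0 of 13 for endoplasmic reticulum stress, beside 14.1% over all genes. In the same order, the groups did not overlap for 4 of 13, 2 of 10, 1 of 16, 2 of 12, 5 of 12 and 0 of 13 genes, beside 21.6% of all probes.

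Upstream of ATF4, the median of 13 genes was -0.015, beside -0.026 over all genes. EIF2B3, a subunit of the exchange factor that reloads eIF2, was at 0.34 (limma adjusted p = 0.177, and 0.0886 with the replicate block). EIF2B3 was dim, with signals of 5.65, 5.85 and 5.77 without doxycycline. DELE1, which relays mitochondrial stress to the eIF2 kinase HRI after cleavage by OMA1, was at 0.26 (limma adjusted p = 0.29, and 0.129 with the block). For both genes all 3 arrays with doxycycline lay above the 3 without it, and for EIF2AK4 (-0.15) and EIF2B1 (-0.11), named after their values were seen, all 3 lay below.

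Among other ATF4 factors and secreted or growth targets the median was -0.050, and -0.20 without doxycycline replicate 2. The death receptor gene TNFRSF10B was at 0.33 (limma adjusted p = 0.224, and 0.128 with the replicate block). KLHL24 was at 0.50 (limma adjusted p = 0.236, and 0.104 with the block), and both were without overlap. KLHL24 was dim, with signals of 5.63, 5.70 and 5.79 without doxycycline. Without doxycycline replicate 2 the changes were 0.36 for KLHL24 and 0.24 for TNFRSF10B. GDF15, a secreted marker of mitochondrial disease that was named after its values were seen, was at 0.23 with an SE of 0.758 (limma adjusted p = 0.912). Within replicate numbers GDF15 differed by -0.19, 0.88 and 0.016.

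The amino acid synthesis and transport targets had 11 of 16 genes below 0 and a median of -0.11. PHGDH, which opens the serine synthesis pathway, was at -0.50 (limma adjusted p = 0.222, and 0.0738 with the replicate block). SLC7A5, a transporter of large neutral amino acids, was at -0.25 (limma adjusted p = 0.303, and 0.145 with the block). Of the cytosolic aminoacyl-tRNA synthetases and the tRNA exporter XPOT, 9 of 12 lay below 0, with a median of -0.077. NARS1 was at 0.34 (limma adjusted p = 0.238, and 0.0957 with the block). SARS1 was at 0.21 (limma adjusted p = 0.475, and 0.299 with the block).

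Mitochondrial chaperones and proteases had 7 of 12 genes above 0 and a median of 0.017. HSPD1, the HSP60 chaperonin, was at 0.30 on its brightest probe (limma adjusted p = 0.26, and 0.104 with the replicate block). Its other probes were at 0.26 and -0.071. HTRA2, a protease of the intermembrane space, was at -0.21 (limma adjusted p = 0.35), and its other probe was at 0.05. For endoplasmic reticulum stress outside ATF4, 11 of 13 genes lay below 0, as did 5571 of 9841 genes in all, and the median was -0.081. Within replicate numbers 1 to 3 that median was -0.10, 0.076 and -0.15. CRELD2 was at -0.20 (limma adjusted p = 0.408) and DNAJC3, an inhibitor of eIF2 kinases, at -0.16 (limma adjusted p = 0.523).

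**Figure D4:**
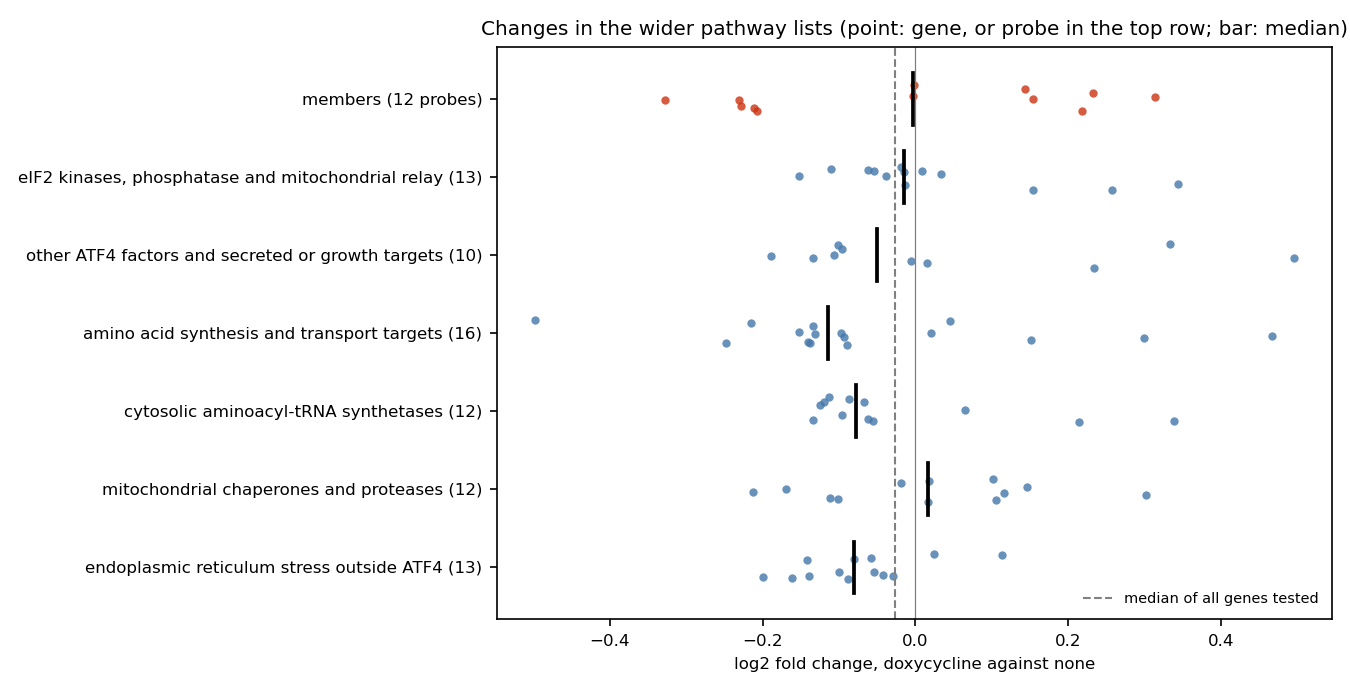
Log2 fold change with doxycycline of the 12 member probes and of each tested gene in 6 pathway lists, with the median of each as a black bar and the median of all genes (-0.026) as a dashed line. The list medians lie between -0.11 and 0.017.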

How the data were processed

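The authors deposited a table of probe intensity (47231 probes, linear scale, 1 bead array per sample) with deposited p-values of detection per probe and array, and a processed log2 table of 17925 probes. The tool lumi is named in the submitters' processing notes with no version. The deposited log2 columns share one sorted distribution to within 0.000353, as after quantile normalization. The intensity table is not normalized between arrays, and scanner software is not given in the sources used here.

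Intensities were background-corrected and quantile-normalized (neqc, offset 16; limma 3.58.1 in R 4.3.3), and probes with detection p under 0.01 on at least 3 of 6 arrays were kept (15542). Groups were compared with lmFit and eBayes, two-sided, with Benjamini-Hochberg adjustment over all probes kept. The annotation covers probes of the processed table only. There 13977 had 1 gene, 4 had several and 3944 were not listed, and 13970 were updated by Entrez number. The fits were run on simulated data with independent noise, no effect of the replicate number and planted changes larger than that of any member. That run cannot speak of sensitivity to changes of the sizes seen here.

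Members and lists were chosen with earlier results of these data known. All members are named. From each list the 2 genes with the smallest p are given as values where none was called. Replicate numbers come from the titles. Same-numbered arrays deviated together (r = 0.40, 0.46 and 0.24 for numbers 1 to 3, and below 0 for other pairs), so they were taken as pairs and the number was used as a block beside the plain fit. Alternatives covered background correction, scaling, filters, weights and left-out arrays. Precision is limited by 3 arrays per group. Slides and scan dates were not used here. The result of 1 marker list is not reported here.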

Additional observations from a re-analysis of the deposited data

How the results depend on the processing

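No member probe and no gene of the wider lists was called under any of 17 alternatives. Member probes gave 201 values there, of which 180 kept their direction and 21 turned it, and the lowest adjusted p was 0.193 (limma, replicate block). The 180 include values that could not turn. Changing the detection filter, adding a variance trend or adding the replicate block to all 6 arrays leaves a probe's change as it was. Apart from the brightest ATF4 probe with array weights, every turn came from a fit that left out arrays. The replicate block changed no member's call. The 3 dimmest member probes (SESN2, VLDLR and the ATF4 probe ILMN_1783394) gave no value when detection on all 6 arrays was required. With array weights the brightest ATF4 probe was at -0.035. In the fits that left out arrays, the changes ran from -0.040 to 0.31 for ATF4 (ILMN_1672128), from -0.39 to 0.13 for ATF5, from -0.036 to 0.39 for ATF3, from -0.67 to 0.25 for DDIT4, from -0.28 to 0.20 for TRIB3, from -0.56 to -0.12 for ASNS (ILMN_1796417), from -0.16 to 0.089 for ASNS (ILMN_2398107), from -0.46 to -0.068 for SESN2, from 0.13 to 0.47 for DDIT3 and from -0.55 to 0.040 for VLDLR. In the same fits the other ATF4 probes, both near background, stayed above 0. They ran from 0.12 to 0.29 (ILMN_2358457) and from 0.042 to 0.32 (ILMN_1783394). One of these fits left out number 2 of both groups and kept the replicate block. There ATF4 (ILMN_1672128) at -0.0088, ATF5 at 0.13 and ASNS (ILMN_2398107) at 0.046 had turned direction. The other members kept theirs, with the brighter ASNS probe (ILMN_1796417) at -0.44. DDIT4 was at -0.43 (blocked interval -0.68 to -0.17, limma adjusted p = 0.22). The ATF4 probe ILMN_1783394 was at 0.32 (blocked interval 0.094 to 0.55, limma adjusted p = 0.243). The median over the tested member probes stayed between -0.15 and 0.15 under all alternatives. The members' median by brightest probe was not followed through them.

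The count of called probes, 106, was 190 without background correction, 198 on the deposited table, 6 without a detection filter, 185 with an offset of 50, 184 with a variance trend, 255 with array weights and 167 with the replicate block. Leaving out 1 array, or number 2 of both groups, gave 1 to 26 calls, and 0 without number 2 and with the replicate block, with fewer samples in the fit. For the other settings the cause was not tested. The dim probes limit what could be seen of SESN2 and VLDLR.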
